A study of Rattus norvegicus with 12 samples.

Results

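Integrins are the cell surface receptors, built of an alpha and a beta subunit, by which cells hold on to the extracellular matrix, and collagens, laminins, fibronectin, nidogens and thrombospondins are the secreted proteins of that matrix. Their transcripts were followed in PC12 cells treated with PACAP38. Members were taken by gene name: every array probe, control spots aside, whose name begins with Itga, Itgb, a collagen chain (Col, a number, a, a number) or a laminin chain (Lama, Lamb, Lamc and a number), or is Fn1, Nid1, Nid2 or Thbs1 to Thbs4. This gave 85 gene names of 33212 on the array, measured by 142 of 41012 probes. They comprised 25 integrin subunits, 39 collagen chains, 11 laminin chains, 4 thrombospondins, 2 nidogens and fibronectin. The other 3 names, Itgb1bp1, Itgb1bp2 and Itgb3bp, match by spelling and are binding proteins, not subunits.

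PC12 cells derive from a pheochromocytoma of the rat adrenal medulla, and PACAP38 is a neuropeptide that raises cyclic AMP in these cells and makes them grow neurites. Cells were kept in RPMI medium with fetal bovine and horse serum on dishes coated with Cellmatrix Type IV, a collagen IV preparation, so both groups lay on a matrix that the cells had not made. PACAP38 was added at 1e-07 M for 5, 10, 15, 30, 60 or 120 min, and the labels give each time point a control of its own, which received no PACAP38. RNA of 6 cultures was pooled per group. Each pair of pools was hybridized to 2 arrays with exchanged dyes, which makes every time point 1 replicate, and within a time point PACAP38 was not tested against control. Both arrays' values stand in place of an error. The p-value of a slope measures only the spread between these samples. The spot p-value used for counting comes from the scanner software's error model for a single array and measures no spread between samples. In RNA of a whole culture, fewer cells that express a gene and less RNA per cell cannot be told apart.

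A laminin is a trimer of an alpha, a beta and a gamma chain, and laminins and collagen IV form the sheets of basement membranes, which nidogens link. Collagen VII forms the anchoring fibrils under epithelia and binds there to a laminin that holds the Lamb3 chain. PC12 cells attach to collagen and laminin through integrins that contain the beta1 subunit, and neurites of these cells extend on both substrates.

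The 12 arrays lay on 3 slides with 4 arrays each: 5 and 10 min on slide 1, 15 and 30 min on slide 2, 60 and 120 min on slide 3. Between 39.8 and 48.9% of spots were well above background in the PACAP38 channel and between 38.4 and 49.6% in the control channel, and no spot was saturated. Of the 9 chromaffin and PC12 markers on the array (Th and Dbh of catecholamine synthesis and Chga among them) 8 were detected in the control RNA of all 6 time points. Of the 4 fibroblast markers 1 was (Pdgfra), of the 4 leukocyte markers 1 (Cd68), of the 4 endothelial markers 0 and of the 2 smooth muscle markers 0. No marker of these lists was counted as higher or lower at 60 or 120 min by the rule given further on. At 120 min, though, the Pdgfra probe gave folds of 0.40 and 0.523 on the 2 arrays, and the Cd68 probe 1.97 and 1.91. Their part in the results was not tested.

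Because the results turn on several probes of Lamb3 and Lama5, the probes of these genes that cross an intron are shown, with that of Itga1 (the alpha1 subunit, a collagen receptor) as a probe that stayed level. Each is a 60-base oligonucleotide, written 5′ to 3′ in lower case, with its position on rat build rn4. Their genomic spans exceed 60 bases, so each lies across spliced exons of the mRNA. The 2 Lamb3 probes matched the same transcript, NM_001100841, at chr13:109187343-109189861 (A_44_P1034209) and at chr13:109170494-109172196 (A_43_P16389), both on the + strand. The 2 Lama5 probes matched NM_001191609 on the - strand, at chr3:169234489-169234642 (A_44_P429455) and chr3:169238178-169238316 (A_44_P189469). That of Itga1 matched NM_030994 on the - strand at chr2:47107893-47112038.
Lamb3 A_44_P1034209: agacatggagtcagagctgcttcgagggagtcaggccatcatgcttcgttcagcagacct
Lamb3 A_43_P16389: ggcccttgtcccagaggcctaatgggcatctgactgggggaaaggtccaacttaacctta
Lama5 A_44_P429455: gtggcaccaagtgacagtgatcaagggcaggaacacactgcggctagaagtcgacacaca
Lama5 A_44_P189469: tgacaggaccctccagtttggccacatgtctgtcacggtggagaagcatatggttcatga
Itga1 A_42_P463754: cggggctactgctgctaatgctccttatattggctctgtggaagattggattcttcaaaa

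The brightest probes of both laminins cross no intron, that of Lamb3 (A_44_P1034201) at chr13:109190212-109190271 and that of Lama5 (A_44_P429453) at chr3:169234188-169234247. The single probe of Col6a5 (A_44_P179296, XM_008766594) lies at chr8:111237930-111237989 and that of Col7a1 (A_44_P295563, NM_001106858) at chr8:114002273-114002332, both on the + strand.

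Most members were not measurable in these cells. In the control RNA, 16 of the 85 genes (18.8%) had a probe well above background on both arrays of all 6 time points, against 11647 of 33212 gene names on the whole array (35.1%). A further 20 were above background in some channels, and 49 (57.6%) were so in no channel of any array, against 14789 gene names in all (44.5%). A gene not detected here may be transcribed below what these probes can show.

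Among the integrin subunits 6 of 25 were detected in the control RNA throughout: Itga1, Itga3, Itgav, Itgae, Itgb1 and Itgb5. Itgb1 pairs with the alpha1, alpha3 and alphav subunits, of which alpha1 binds collagens and alpha3 laminins, while alphav pairs also with Itgb5 to bind vitronectin. The alpha subunits Itga5 (of the fibronectin receptor), Itga6 and Itga7 (of laminin receptors) and the beta subunit Itgb3 were above background in no channel. Itgb4, the partner of Itga6, was detected in part, as were Itga2b, Itga9 and Itgb7. The other 15 subunits were above it in none.

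Among the collagens 5 of 39 were detected in the control RNA throughout: the fibrillar chains Col1a1 and Col11a2, the basement membrane chain Col4a1, Col16a1, a collagen that attaches to other fibrils, and Col18a1, a proteoglycan-type collagen of basement membranes. Col4a2, the obligate partner of Col4a1 in collagen IV, has 1 probe, which was above background in no channel. The detection of Col4a1 rests on 1 of its 2 probes, A_44_P1070510, above background in all 24 channels, while A_44_P1021644, 112.1 kb nearer the 3′ end on rn4, was so in 1. Of the 3 Col1a1 probes A_44_P350521 was above background in 24 channels, A_44_P419137 in 17 and A_44_P238421 in 0. Col3a1 was above background in no channel either. Col1a2, the partner of Col1a1, was detected on both arrays of the control RNA at 5 of the 6 time points. It is 1 of 13 collagens detected in part, with Col2a1, Col5a3 and Col27a1 (fibrillar), Col4a4 and Col4a5 (basement membrane), Col6a1, Col6a2 and Col6a5 (beaded filaments), Col7a1, Col8a2, Col9a1 and Col9a2. The other 21 were above background in none.

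Among the laminins 2 of 11 were detected throughout, Lama5 and Lamb3. Partner chains were not: Lama3, which joins Lamb3, and Lamb1 and Lamb2, which join Lama5, were above background in no channel, and Lamc1 was so in 6 of 24 channels. Fn1, the fibronectin gene, Nid1, Thbs1 and Thbs2 were in no channel either. Thbs3, a thrombospondin, was detected throughout, whereas Nid2 was so in 1 channel and Thbs4 in 2.

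**Figure D1:**
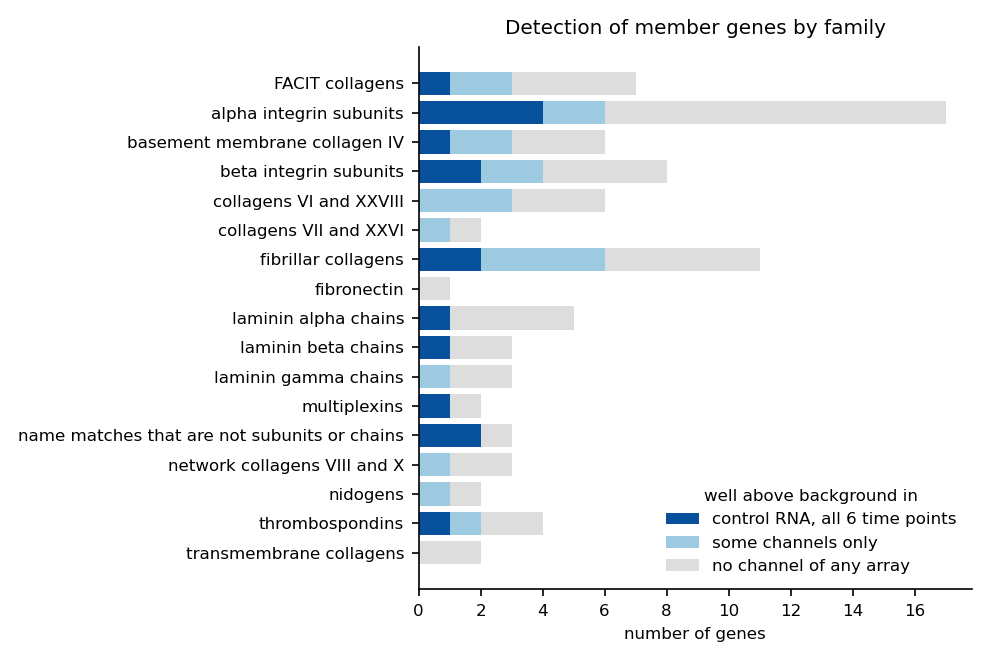
Number of member genes (x axis) per family (y axis), split by detection: dark blue for genes with a probe well above background on both arrays of the control RNA at all 6 time points, light blue for genes above background in some channels only, grey for genes above it in none. The dark segments add up to 16 genes and the grey segments to 49.

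Counted as higher were probes that reached 2-fold on both arrays of a time point, each with a spot p-value of the scanner software below 0.01, and as lower those that fell to 0.5-fold or less likewise. No member was counted at 5, 10, 15 or 30 min, when 0.368% of all probes were counted at 1 or more of these times. At 60 min 2 of the 142 member probes were higher, both of Lamb3, against 0.87% of all probes. At 120 min 6 of the 142 (4.23%) were higher, against 1.95% of all probes. Both RNAs were well above background on both arrays for 4 of the 6, and for the other 2 the control was not. They belong to 4 genes, Lamb3 and Lama5 with 2 probes each, Col6a5 and Col7a1. Probes of 1 gene share their target and are not independent. No member was counted as lower at 60 min, against 0.375% of all probes, nor at 120 min, against 1.53%.

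Lamb3, the laminin beta3 chain, stayed within 1.30-fold of control or below it until 30 min and was higher from 60 min. On its brightest probe, A_44_P1034201, the processed signal with PACAP38 and with control was 257.5 and 255.0 on the array with PACAP38 in Cy5 at 5 min, and 273.9 and 264.2 on the array with PACAP38 in Cy3. At 60 min it was 809.4 with PACAP38 and 265.5 with control on the former array, and 741.3 and 275.2 on the latter. At 120 min it was 4321 and 618.1 on the former, and 4192 and 688.5 on the latter. PACAP38 thus lay above control on both arrays at both of these later times, which the rule for counting itself requires. The folds were 3.05 and 2.69 on the 2 arrays at 60 min (mean 2.87) and 6.99 and 6.09 at 120 min (mean 6.52). From 5 to 30 min the mean folds lay at 1.02, 0.801, 0.998 and 1.25 in order of time.

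The probe A_44_P1034209, which crosses an intron 410 bases upstream of that probe on rn4, gave the same course. Its folds were 2.86 and 3.08 at 60 min (mean 2.97) and 11.8 and 10.7 at 120 min (mean 11.2). From 5 to 30 min they were between 0.746 at 10 min and 1.30 at 30 min. The third Lamb3 probe, A_43_P16389, lies 18.1 kb upstream of the brightest and was well above background in 2 of 24 channels, both on 1 array at 120 min, where the fold was 1.59, and the other array gave 0.767 (mean 1.104). Lamb3 was thus counted by 2 of its 3 probes and not by the one farther 5′. With normexp background correction, which adds a constant of 50 to both signals, the mean folds of the 2 responding probes at 60 min were 2.04 and 1.76 and neither reached 2-fold on both arrays. At 120 min they were 4.45 and 5.29.

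Lama5, the laminin alpha5 chain of many basement membranes, was counted at 120 min. On the brightest probe, A_44_P429453, the PACAP38 and control signals at 30 min were 770.1 and 719.0 on the array with PACAP38 in Cy5 and 768.8 and 702.4 on the other. At 60 min they were 1583 and 810.5 on the former and 1804 and 839.7 on the latter. At 120 min they were 7711 and 1300 on the former and 7541 and 1477 on the latter, so that PACAP38 lay above control on both arrays at both late times. The folds at 60 min were 1.95 and 2.15, so that 1 array fell short of the limit and the gene was not counted. At 120 min they were 5.93 and 5.11 (mean 5.50). At 5 to 30 min the mean folds ranged from 0.819 at 15 min to 1.11 at 5 min.

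The intron-crossing Lama5 probe A_44_P429455 gave folds of 4.33 and 4.73 at 120 min (mean 4.53). It was dim at earlier times, with 12 of 24 channels above background in all, and at 10 min its arrays disagreed in direction, with 2.22 and 0.258. Normexp correction left it a fold of 1.46 at 120 min, so it was no longer counted. The brightest probe kept 4.45 with loess and 3.81 with median centring. The probe A_44_P189469, 3.99 kb upstream of the brightest on rn4, was above background in 1 channel of 24, that of PACAP38 at 120 min on 1 array.

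Col6a5, a chain of collagen VI, which forms beaded filaments around cells, and Col7a1, the collagen of anchoring fibrils, were detected with PACAP38 at 120 min. On the Col6a5 probe the signals at 120 min were 321.4 with PACAP38 and 36.0 with control on the array with PACAP38 in Cy5, and 297.0 and 15.2 on the other. Until 60 min neither RNA was well above background, with signals between 4.97 and 19.2. Since the control was not well above background on either array, the fold is a lower bound: Col6a5 was at least 10.1-fold higher at 120 min.

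On the Col7a1 probe the signals at 120 min were 247.6 and 11.5 on the array with PACAP38 in Cy5, and 152.9 and 16.8 on the other. Earlier signals ranged from 3.85 to 22.6, with 1 control channel at 60 min above background. Col7a1 was at least 6.38-fold higher at 120 min by the same bound. Each gene has 1 probe. With the constant that normexp correction adds, the folds were 1.63 for Col6a5 and 1.57 for Col7a1, and neither was counted.

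**Figure D2:**
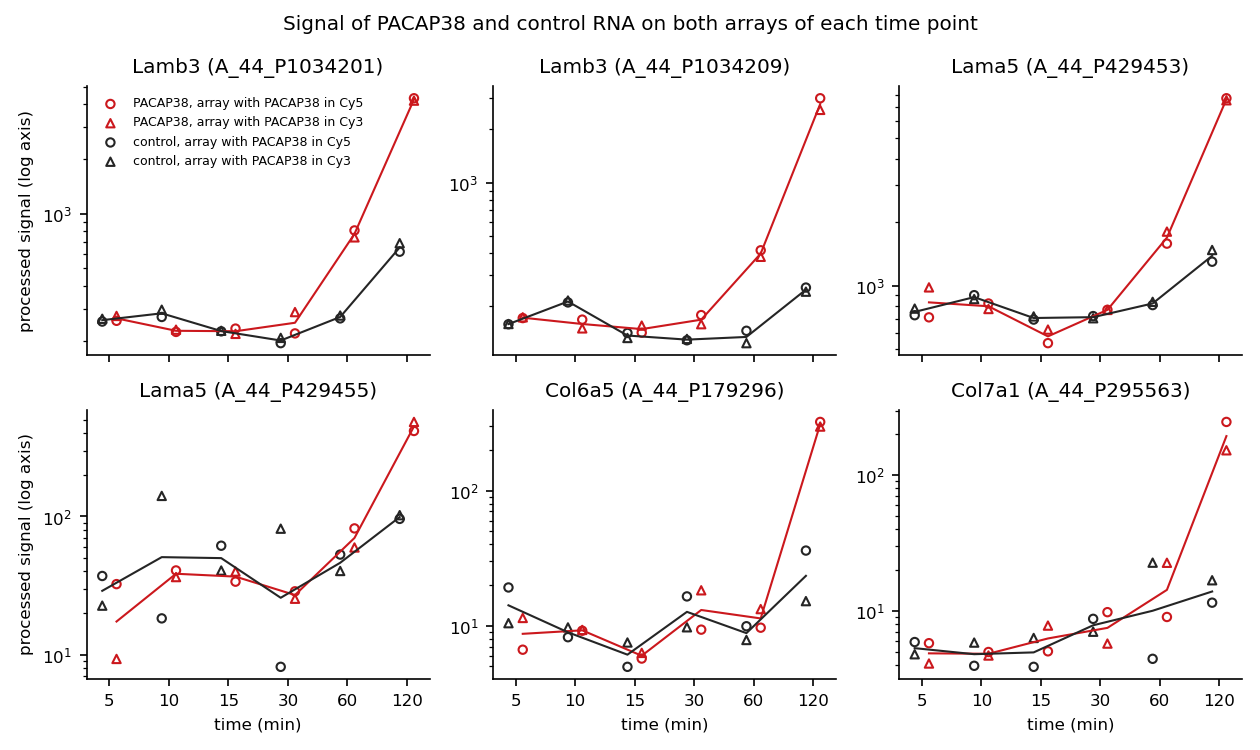
Processed signal (log axis, each panel with its own range) against time in minutes for 6 probes of Lamb3, Lama5, Col6a5 and Col7a1, PACAP38 in red and control in black. Circles are the array with PACAP38 in Cy5, triangles that with PACAP38 in Cy3, and lines join their geometric means; signals are to be compared within a time point. PACAP38 lies above control on both arrays at 60 min for the Lamb3 probes and the brightest Lama5 probe, and at 120 min for all 6 probes.

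On their brightest probes the integrin subunits detected throughout stayed close to control. For Itga1 the mean folds of A_42_P463754 over the 6 time points lay between 0.863 at 15 min and 1.103 at 60 min. The last time point, 120 min, gave 0.945 and 1.02 on the 2 arrays. Itgav (A_44_P973249) gave 1.27 and 1.15 at 120 min (mean 1.21) and Itga3 (A_44_P975369) 1.55 and 1.03 (mean 1.26). Itgae, the alpha subunit that binds E-cadherin, lay between 0.886 and 0.972 at the 6 times, and Itgb5 between 0.912 and 1.103. None of these probes came near the 2-fold limit on both arrays. For Itga3 a dimmer probe, A_43_P18218, read a mean of 2.07 at 120 min, but it was above background in 7 of 24 channels and its arrays disagreed. The dimmer Itgav probe A_43_P11388, above background in 15 of 24 channels, gave means of 1.46 at 60 min and 1.17 at 120 min. The other, A_44_P428651, above background in 9 of 24, had means from 0.545 to 1.22 over the 6 times.

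Itgb1, the beta1 subunit common to the collagen and laminin receptors, has 2 probes detected in all channels. The brightest, A_44_P507943, gave 1.19 and 1.14 at 60 min (mean 1.17) and 1.26 and 1.33 at 120 min (mean 1.29), above control on both arrays at each time. The other, A_44_P273697, which lies 10.6 kb upstream on rn4, gave means of 0.862 at 60 min and 0.993 at 120 min. The 2 probes of Itgb1 thus differed, and no shift of the gene is called.

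**Figure D3:**
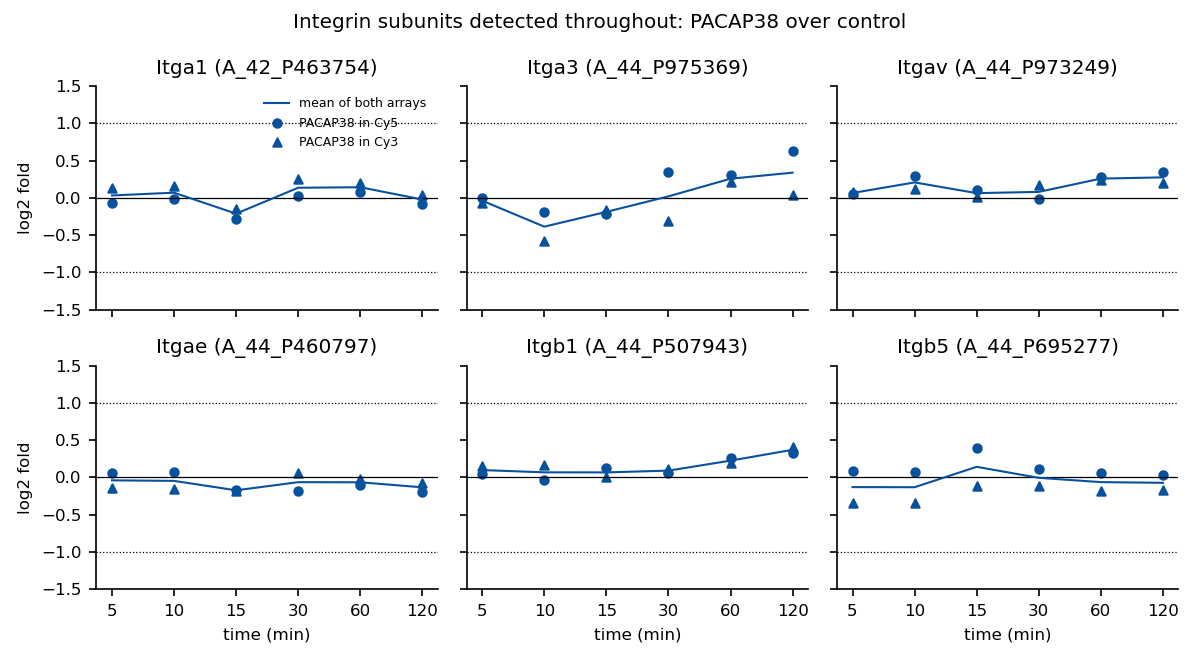
Log2 fold of PACAP38 over control (y axis, the same range in all panels) against time in minutes for the 6 integrin subunits detected in the control RNA throughout. Circles and triangles are the arrays with PACAP38 in Cy5 and in Cy3, the line is their mean, and dotted lines mark 2-fold either way. All means lie between -0.39 and 0.37.

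Of the collagens measured in both RNAs none was counted at any time. At 120 min Col11a2 gave 1.35 and 1.28 (mean 1.31), Col16a1 1.15 and 1.43 (mean 1.28) and Col4a1 1.30 and 0.974 (mean 1.13). Col1a1 gave 1.79 and 1.19 at 30 min (mean 1.46), its farthest from control, and 1.16 at 120 min. Col1a2 read 0.427 and 0.994 at 120 min (mean 0.652), so that the array with PACAP38 in Cy5 alone was below 0.5. On that probe, A_43_P12783, the arrays read in opposite directions from 5 to 60 min, for example at 10 min, when the Cy5-labelled PACAP38 RNA gave 0.678 and the Cy3-labelled 1.86. No direction is given for Col1a2. Thbs3 lay between 0.935 and 1.12 at the 6 times. The name matches Itgb1bp1, which binds the tail of the beta1 subunit, and Itgb3bp, a centromere protein, gave 0.933 and 0.934 at 120 min.

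Over the member probes with both RNAs well above background on both arrays, the median log2 fold was 0.08 at 60 min (24 probes) and 0.21 at 120 min (21 probes). Over all probes under the same condition it was -0.02 at either time. At 120 min the integrin subunits alone gave -0.01 (7 probes, 3 of them above 0) and the collagens 0.21 (7 probes, 6 of them above 0). The chromaffin and PC12 markers, which are no members, gave 0.23 at 120 min (11 probes). At 120 min the member median was 0.09 under normexp with loess, against -0.02 over all probes. Under normexp with median centring it was -0.03, against -0.15 over all probes.

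**Figure D4:**
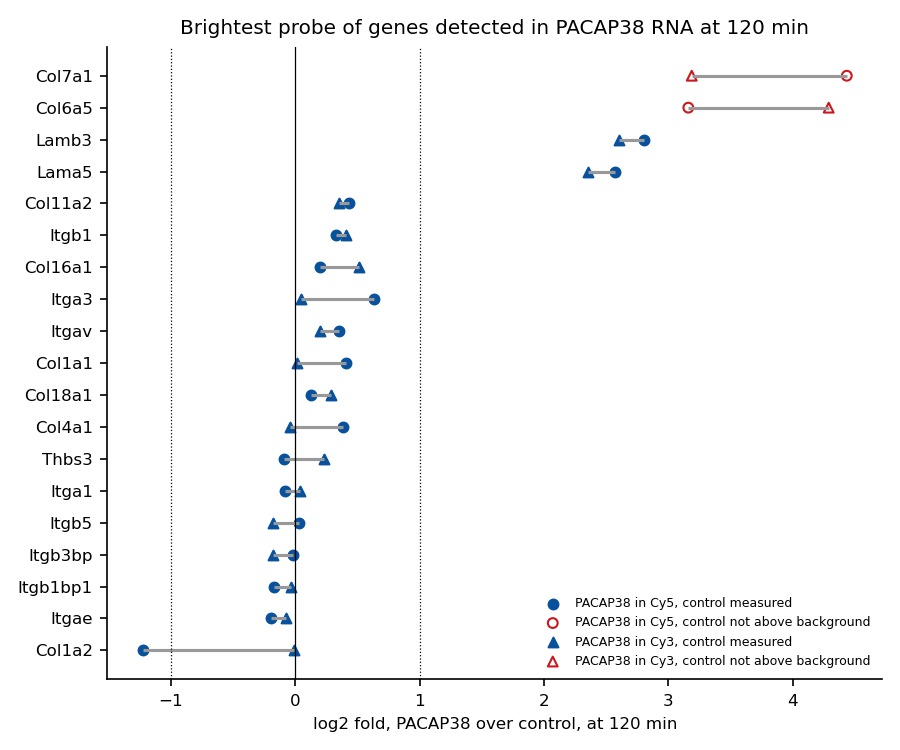
Log2 fold of PACAP38 over control at 120 min (x axis) for the brightest probe of the 19 member genes detected in the PACAP38 RNA on both arrays, by gene (y axis). Circles and triangles are the arrays with PACAP38 in Cy5 and in Cy3, joined by a grey line, and dotted lines mark 2-fold either way. Open red symbols mark the 2 genes whose control was not above background, Col7a1 and Col6a5; Lamb3 and Lama5 lie between 2.35 and 2.81, and the other 15 genes lie within the dotted lines on at least 1 array.

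Whether a fold changed steadily with time was tested by limma, as the slope of the log2 fold on log2 time over the 6 time points, with Benjamini-Hochberg adjustment over all 20265 probes tested. Of these, 0.725% were called at an adjusted p below 0.05. Of the 37 member probes tested 0 were called, and 11 (29.7%) had an unadjusted p below 0.05, against 28.7% of all probes tested. The slopes of Lamb3 were 0.62 ± 0.12 (SE) per doubling of time on A_44_P1034201 (limma adjusted p = 0.074) and 0.74 ± 0.17 on A_44_P1034209 (limma adjusted p = 0.082). Those of Lama5 were 0.51 ± 0.14 (limma adjusted p = 0.0987) and 0.58 ± 0.10 (limma adjusted p = 0.065, on A_44_P429455). Without 120 min the 2 Lamb3 slopes were 0.42 and 0.42, and those of Lama5 were 0.24 and 0.36. With the slide as a block the Lamb3 slopes were 0.39 ± 0.32 and 0.54 ± 0.51, and under normexp with median centring they were 0.41 and 0.43. Itgb4, the beta subunit of the hemidesmosome integrin, had a slope of -0.19 ± 0.03 (limma adjusted p = 0.0566), on a probe above background in 16 of 24 channels. Its fold was at least 1.57 at 5 min, where the control was above background on neither array, 1.52 at 10 min and 0.866 at 120 min. Under normexp with loess the slope of Itgb4 was -0.01, and with the slide as a block it was -0.10. That of Lama5 on A_44_P429455 was 0.11 under normexp with loess. With time in minutes in place of log2 time the same fit called 10 member probes, those of Lamb3 (2), Lama5 (2), Col6a5, Col7a1, Itgb1, Itgb4, Col1a2 and Col27a1. These are 27.03% of the 37, against 26.34% of all probes tested (5337). The RNA of Col6a5 and Col7a1 with PACAP38 was well above background on both arrays at 120 min alone, and their control RNA at no time. Both probes thus passed the filter of these fits only through the time point at which they were high. Their slopes and calls are not read as a result. With the slide as a block the fit called 0 of all probes, 951 of them with an unadjusted p below 0.05.

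Basal levels were followed on the control RNA alone, on signals made comparable between arrays by Aquantile normalization. Lamb3 varied between 7.83 and 8.88 on the log2 scale over the 6 control pools on A_44_P1034201 (8.19 ± 0.39, SD, n = 6), its highest value being that at 120 min. Lama5 varied between 9.49 and 9.96 (9.73 ± 0.19). Spreads of the other probes detected throughout ran from 0.09 for Col11a2 to 0.72 for Itgb3bp. In limma 0 of the 18060 probes tested (0.0%) had a slope of the control signal on log2 time at an adjusted p below 0.05, and 3388 had an unadjusted p below 0.05. Of the 29 member probes 0 were called, with 3 at an unadjusted p below 0.05: Itgb5, the dimmer Itgb1 probe and a dim Itgav probe.

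Genes that act with these members were examined as 4 lists. None of their 122 probes was counted at any time point, beside 0.87% of all probes higher and 0.375% lower at 60 min, and 1.95% higher and 1.53% lower at 120 min. Of the 24 genes of focal adhesions and integrin signalling, Ptk2, the focal adhesion kinase, Tln1 and Vcl among them, 18 were detected in the control RNA throughout. So were 12 of the 16 genes of collagen modification and secretion, such as the prolyl hydroxylase P4ha1, 7 of the 11 matrix receptors other than integrins, such as the dystroglycan gene Dag1, and 5 of the 16 other matrix proteins, Sparc and Agrn among them. The median log2 folds of these lists at 120 min, over probes with both RNAs above background, were 0.10, 0.15, 0.08 and 0.22, beside -0.02 over all probes. Single folds there ran from 0.674 for Crk to 2.37 for Flna, the actin crosslinker filamin A, which missed 2-fold on 1 array.

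Promoter windows of Lamb3, Lama5 and Col7a1 are shown as those of the genes counted as higher at 120 min whose windows hold a searched motif. They are RefSeq windows on rat build GRCr8, from 250 bases before to 50 after the annotated start, which need not be the start used in PC12 cells. Windows were found for 65 of the 85 member genes. They were searched on both strands for TGACGTCA (the cAMP response element), its first 5 letters TGACG, which lie within it, TGANTCA (the AP-1 element), GCGNGGGCG (the Egr element) and GGGCGG (the Sp1 element), and matches are in capitals. The Lamb3 window is chr13:107362303-107362602 on the + strand, that of Lama5 chr3:187695925-187696224 on the - strand, and that of Col7a1 chr8:118483114-118483413 on the + strand.
Lamb3 promoter: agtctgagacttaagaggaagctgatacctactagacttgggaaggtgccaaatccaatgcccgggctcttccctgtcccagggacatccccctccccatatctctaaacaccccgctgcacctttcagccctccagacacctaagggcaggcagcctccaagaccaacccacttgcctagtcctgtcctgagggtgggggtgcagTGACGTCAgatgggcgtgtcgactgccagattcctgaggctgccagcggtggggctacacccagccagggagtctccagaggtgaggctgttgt
Lama5 promoter: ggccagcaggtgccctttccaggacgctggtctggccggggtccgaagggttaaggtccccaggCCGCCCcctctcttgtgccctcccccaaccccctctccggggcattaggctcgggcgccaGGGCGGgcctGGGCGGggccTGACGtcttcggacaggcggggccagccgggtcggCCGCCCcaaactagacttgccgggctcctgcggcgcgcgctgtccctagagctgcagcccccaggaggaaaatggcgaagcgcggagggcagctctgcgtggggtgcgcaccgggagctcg
Col7a1 promoter: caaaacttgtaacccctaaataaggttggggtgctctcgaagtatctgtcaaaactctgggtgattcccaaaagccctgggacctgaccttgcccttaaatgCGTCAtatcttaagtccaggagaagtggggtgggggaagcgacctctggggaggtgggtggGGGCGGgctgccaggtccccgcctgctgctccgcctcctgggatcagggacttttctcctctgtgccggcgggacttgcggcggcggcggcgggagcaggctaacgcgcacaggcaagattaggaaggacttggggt

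The Lamb3 window holds TGACGTCA, beginning 44 bases before the start, which 1.83% of the 33469 RefSeq windows hold. Among the member genes Col24a1 holds it too, but its 2 probes were above background in no channel. The Lama5 window holds TGACG, 106 bases before the start, and 4 copies of GGGCGG over both strands. The Col7a1 window holds TGACG on the reverse strand and 1 copy of GGGCGG. Of all windows 21.2% hold TGACG and 33.1% hold GGGCGG. Of the 65 member genes with a window, 9 hold TGACG and 37 hold GGGCGG, among the latter Itga5 and Thbs1, which were above background in no channel. The AP-1 and Egr letters, held by 7.33 and 4.98% of all windows, are in none of these 3 windows, and the windows of Col6a5 hold none of the 5 motifs. A match describes letters in a window and shows no binding.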

How the data were processed

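RNA of PACAP38-treated and control PC12 cells was compared at 6 time points on 12 Agilent 4x44K arrays with 2 colours. The authors processed the scanned images with Agilent Feature Extraction (11.0.1.1 by the submitters' processing notes). The study's methods and the deposited files name other versions. These files hold processed intensities of Cy3 and Cy5 (background-subtracted, dye-normalized), deposited log10 ratios, spot p-values from the software's error model, and flags. The series table of deposited log10 ratios served as an alternative. None was turned for the dye exchange.

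Here the log2 ratio of PACAP38 to control was taken from the processed intensities by the dyes in the labels. Of 45018 spots the 1639 control spots and 197 to 267 outlier-flagged spots per array were left out, and spots of 1 probe were averaged. Folds of both arrays were averaged on the log2 scale, and a gene's value is its brightest probe. If neither array detected 1 of the RNAs, the fold is a bound, in which the dim signal was raised, per array, to that of the faintest detected probe of its channel if it lay below it, after Aquantile normalization. Slopes used limma 3.58.1 in R 4.3.3, over probes detected on each array of some time point in either RNA, and the fit was tested on simulated data. Whether that filter asks for the same RNA on both arrays was settled after the calls of both readings were seen. Other steps used Python 3.11.15 with pandas 2.3.3.

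Named were the members counted at any time, the 5 largest and 5 smallest folds at 60 and 120 min among brightest probes measured in both RNAs, and 24 fixed members. The members and lists were chosen with earlier results of these data known. Alternatives were other fold and p-value limits, each array alone, normexp (offset 50) with loess or median centring, the deposited table, other filters and probes, other time scales, the slide as a block and dropping single time points. The number of arrays limits the precision. Of the 142 member probes 91 matched RefSeq by accession, all with the same symbol. The proteome data of the study were not analysed here. A few genes and 1 marker list are not reported here.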

Additional observations from a re-analysis of the deposited data

Results flagged for a closer look

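Of the 18 probes detected throughout the control RNA, 1 had a pool far from the other 5: Itgb3bp at 10 min, with a log2 signal of 9.49 as the lowest of 6, the gap to the next being 0.674 of the whole range. Chance alone flags about 5% of such groups. The 2 responding Lamb3 probes and the brightest Lama5 probe read below control on both arrays at 1 early time point, opposite to the later times at which they were counted as higher: 0.801 at 10 min for A_44_P1034201, 0.746 at 10 min for A_44_P1034209 and 0.819 at 15 min for A_44_P429453. These probes were chosen for this pattern, so no test of it is given, and since 60 and 120 min lay alone on slide 3, late time and slide cannot be told apart.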

How the results depend on the processing

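Signal over background limits what can be seen: 49 of 85 genes were above it in no channel, and each time point is 1 pair of pools. Of 6 probes higher at 120 min, normexp with loess and with median centring each left 3, and of 2 higher at 60 min each left 0. At 60 min dropping the p-value limit gave 4 and taking 1 probe per gene gave 1. Dropping the p-value limit also counted 1 probe at 5 to 30 min, in place of 0. With each array alone the count was 2 to 5 for higher at 60 min, 7 to 9 for higher at 120 min, 0 to 1 for lower at 60 min, 0 to 1 for lower at 120 min and 7 on either array at 5 to 30 min. For the slope of the log2 fold, 0 members were called and the count was 10 with time in minutes, 1 of 37 (Lamb3, 2.70%, against 2.94% of all probes) with 60 and 120 min against 5 to 30 min, where late time and slide 3 cannot be told apart, and 2 of 18 (Lamb3, 11.1%, against 7.00%) with both RNAs above background at all 6 time points. It was 1 (Itgb4, limma adjusted p = 0.0478) where the same RNA had to be above background on both arrays, and the choice between this reading of the filter, tried first, and the one used was made after seeing the data. It was 0 to 1 without each time point in turn, the 1 being Lamb3 without 5 min. The slide as a block gave 0 members and normexp 0. The cause of these shifts was not tested. For the control slope each alternative gave 0 members. The 16 genes detected throughout became 24 with the positive and significant flag and 18 with at least 1 array of each time point. Of 81 values of single folds under normexp or on another probe of the gene, 39 moved by more than the spread of both arrays, 42 did not, and 8 lay on the other side of 1-fold, among them Itgav (0.979) and Col4a1 (0.956) at 120 min under normexp with median centring and Col1a1 (0.891) at 60 min on another probe. Of the 10 values that belong to folds counted as higher, 0 did.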
